A study of Mus musculus with 8 samples.

Results

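Loops found in both lens cell types and not in embryonic stem (ES) cells numbered 1628 of the 7502 fiber loops on chromosomes 1 to 19 (21.7%). A loop here was a pair of anchors, 2 stretches of DNA of 5, 10 or 25 kb each, between which Hi-C recorded more contacts than in the surrounding map. The loops were chosen by the calls themselves: each had an epithelium loop whose anchor midpoints both lay within 10 kb of its own, and no ES cell loop within 25 kb by the same measure. The calls in the 3 lists and the contact enrichments behind them are therefore a description of the choice. The 1628 loops paired with 1628 different epithelium loops.

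Hi-C was done on lens epithelium and lens fiber cells micro-dissected from newborn CD-1 mice (postnatal day 0.5; 30 lenses in each replicate) and on v6.5 ES cells, a male line of mixed 129/B6 background grown with LIF (2000000 cells in each replicate). All 3 materials were fixed in 2.0% formaldehyde, and 2 replicates of each cell type were merged before loops were called. CTCF ChIP-seq gave 1 peak list for epithelium and 1 for fiber from 200 pooled CD-1 lenses. The labels name 1 ChIP-seq sample for each, although the methods speak of biological replicates, and how these entered the lists is not given in the sources used here. Lens and ES cells differed in strain as well as in cell type, and these cannot be told apart. Because each cell type has a single merged loop list, differences between lists carry no replicate error and were not tested. Shares are given instead with Wilson 95% intervals, which cover counting error only and treat loops as independent although loops can share anchors. A loop missing from the ES cell list was not called there. The contacts of ES cells at these positions were not analysed here, nor was any marker gene that could check the purity of the dissected cells.

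Loops form where the cohesin ring, sliding along chromatin, is held at sites bound by the zinc finger protein CTCF, and many of them close the corners of topologically associating domains (TADs), stretches within which DNA contacts itself more than its neighbours. Other loops bring a distal enhancer next to the start of a gene. The lens is built from an anterior epithelium that keeps dividing and from fiber cells that leave the cell cycle, elongate, fill with crystallins and lose their organelles, under the control of FGF, BMP, Wnt and Notch signals and of transcription factors such as Pax6, Sox2 and Maf.

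Gene starts carrying CTCF at a loop anchor are shown first, because they tie the loops to named sequence. Of 20084 promoter entries on 18 of these chromosomes, 686 entries of 583 protein-coding genes had their start inside an anchor, and 65 of these (9.48%, interval 7.50 to 11.9) held a lens CTCF peak within the window from 250 bases before the start to 50 after it, against 1160 of all entries (5.78%, interval 5.46 to 6.11). All 65 held a fiber peak and 20 held an epithelium peak. Starts in the anchors of other fiber loops were not compared. The letters CAGNGGGC, part of the known CTCF core, were searched on both strands, where the reverse strand reads GCCCNCTG. They stood in 16 of the 65 windows (24.6%, interval 15.8 to 36.3), in 26.3% of all windows with a lens peak and in 10.8% of all windows. Matches in 2 orientations may overlap and were counted once for each window. The sequences below run from 250 bases to 1 base before the start, 5′ to 3′ on the strand of the gene, from RefSeq on GRCm38.p6, and capitals mark the matches. Hif1a and Stag1 are the 2 genes of the gene lists used below whose promoter window held a peak, in fiber and not in epithelium. Neither had a match in these bases. Haspin, Crbn, Cpne4 and Spock1 are examples of the promoters with a peak in both lens lists and a match.
Hif1a, chr12:73907617-73907866, plus strand: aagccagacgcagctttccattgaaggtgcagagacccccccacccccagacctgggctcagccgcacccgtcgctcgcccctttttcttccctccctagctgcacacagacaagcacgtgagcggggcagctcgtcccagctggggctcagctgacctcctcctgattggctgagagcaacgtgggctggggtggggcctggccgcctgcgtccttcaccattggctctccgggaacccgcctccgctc
Stag1, chr9:100643198-100643447, plus strand: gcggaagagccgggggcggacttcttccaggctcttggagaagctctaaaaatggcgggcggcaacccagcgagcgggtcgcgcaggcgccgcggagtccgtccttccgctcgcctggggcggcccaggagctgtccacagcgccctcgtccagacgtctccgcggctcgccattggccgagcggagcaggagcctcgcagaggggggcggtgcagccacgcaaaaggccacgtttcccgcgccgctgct
Haspin, chr11:73138295-73138544, minus strand: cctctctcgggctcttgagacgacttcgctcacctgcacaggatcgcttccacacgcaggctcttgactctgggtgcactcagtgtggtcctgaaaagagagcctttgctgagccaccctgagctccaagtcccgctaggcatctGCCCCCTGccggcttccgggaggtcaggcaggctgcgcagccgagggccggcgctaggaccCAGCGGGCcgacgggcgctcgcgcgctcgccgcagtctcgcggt
Crbn, chr6:106800088-106800337, minus strand: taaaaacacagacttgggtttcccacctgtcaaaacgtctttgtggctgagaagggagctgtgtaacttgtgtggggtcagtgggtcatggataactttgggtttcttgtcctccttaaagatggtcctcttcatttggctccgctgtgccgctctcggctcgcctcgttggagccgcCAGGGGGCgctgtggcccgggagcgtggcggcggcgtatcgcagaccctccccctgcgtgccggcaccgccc
Cpne4, chr9:104569405-104569654, plus strand: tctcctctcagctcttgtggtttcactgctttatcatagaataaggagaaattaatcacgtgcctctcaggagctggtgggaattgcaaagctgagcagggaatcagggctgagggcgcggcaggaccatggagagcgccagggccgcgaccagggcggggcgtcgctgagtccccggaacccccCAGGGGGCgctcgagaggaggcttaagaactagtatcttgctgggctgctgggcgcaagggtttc
Spock1, chr13:57908333-57908582, minus strand: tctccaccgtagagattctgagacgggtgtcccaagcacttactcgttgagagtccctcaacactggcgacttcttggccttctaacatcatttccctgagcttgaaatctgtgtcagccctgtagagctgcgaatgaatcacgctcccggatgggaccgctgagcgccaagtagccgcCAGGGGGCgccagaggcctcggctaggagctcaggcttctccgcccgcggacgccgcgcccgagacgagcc
The match in Crbn, Cpne4 and Spock1 read the same letters on the strand of the gene, and Haspin, which encodes a mitotic histone kinase, held a match on each strand. A match describes the letters and not a bound site.

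Within the lists of signalling genes used here, the gene with most of these loops was Jag1 (chr2:137081451-137116520), which encodes a Notch ligand. All 3 fiber loops with an anchor on Jag1 belonged to the group, 2 of them holding its start. The ES cell list had no loop anchored on the gene. The first loop joined the anchor at the start (chr2:137115001-137120000) to chr2:137725001-137730000, 610 kb away, with 30 contacts in fiber against 6.53 expected and 52 in epithelium against 12.9 expected. The next joined the start to chr2:137930001-137940000, 820 kb away, with 30 contacts in fiber against 8.15 expected and 90 in epithelium against 29.8. The last joined the body of the gene to an anchor in Slx4ip (chr2:136910001-136920000), 190 kb away, with 54 contacts in fiber against 15.7 expected and 132 in epithelium against 54.4. Counts in the 2 lists stand on different anchor widths for all 3 loops (5 or 10 kb in fiber, 10 or 25 kb in epithelium), and ratios fall with width too, so the ratios of 4.60, 3.68 and 3.45 in fiber and 4.02, 3.02 and 2.43 in epithelium are given side by side only. The same holds below for the loops of Bmp4, Hif1a, Etv5, Rb1 and Stag1, for the Maf loops of 440 and 650 kb, the Fgfr2 loop of 200 kb, the Axin2 loop of 475 kb and the Fzd1 loop of 500 kb.

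A further pair of loops reached the same distal sites without Jag1. They ran from the Slx4ip anchor over 825 kb and 1025 kb, on 25 kb anchors in both lists, at ratios of 2.56 and 3.50 in fiber and 2.47 and 3.04 in epithelium. The 4 sites were thus tied by 5 loops, and neither distal site overlapped a protein-coding gene. A CTCF summit lay 1.02 kb from the Jag1 start in both lens cell types, at a fold enrichment of 8.51 in fiber and 4.81 in epithelium. At 25 kb width the farthest site held a CTCF peak in both lists, whereas the Slx4ip anchor held none. The nearest ES cell anchor to any of these sites was 317.5 kb away.

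**Figure D1:**
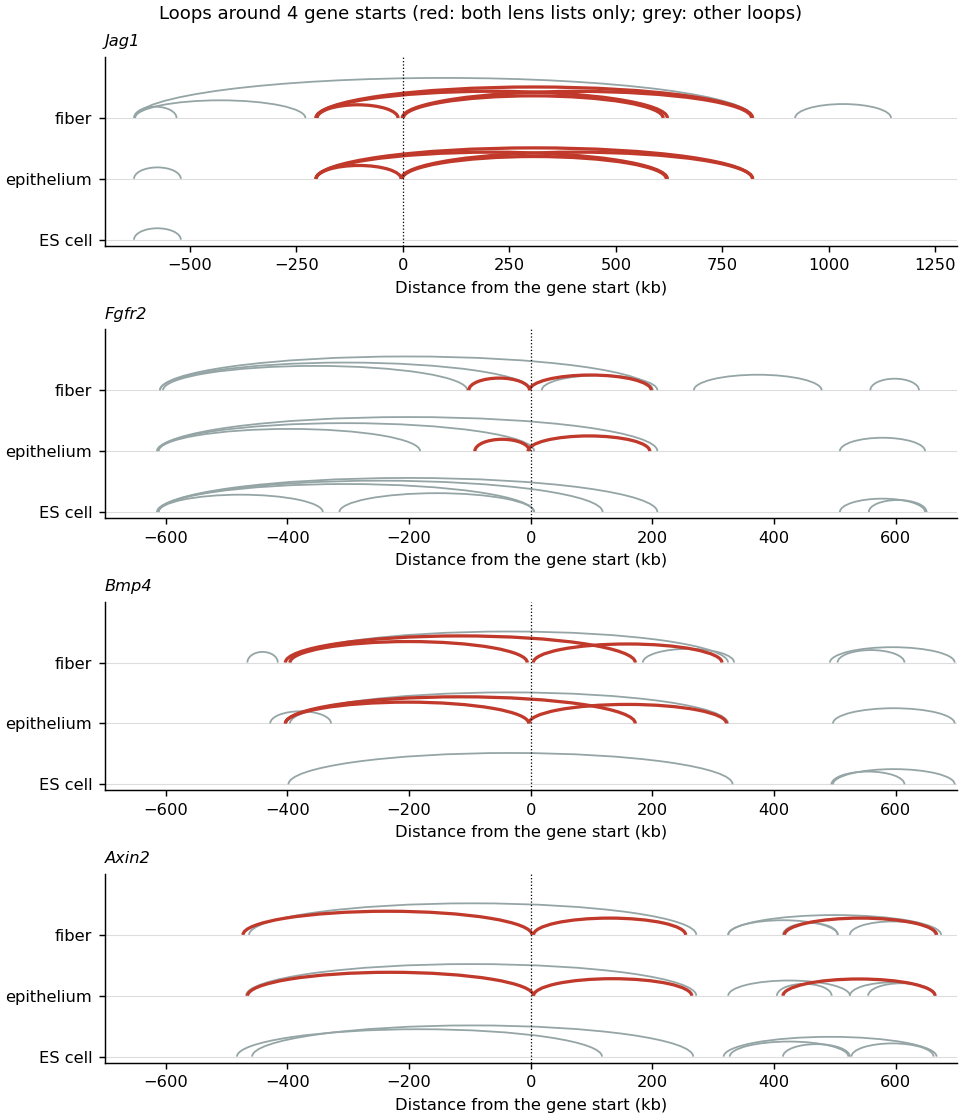
Loops around the starts of Jag1, Fgfr2, Bmp4 and Axin2, drawn as arcs between anchor midpoints against the distance from the gene start in kb, with a row for each of the fiber, epithelium and ES cell lists; red arcs are loops of both lens lists only (in the epithelium row, the matched loops), grey arcs all other loops that lie wholly in the window. Around Jag1, 5 of 9 fiber loops and 5 of 6 epithelium loops are red and the ES cell row holds 1 loop at the left edge, away from the gene.

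FGF signalling drives fiber differentiation, and 4 of the 17 genes of its list held an anchor: Fgf2, Fgfr1, Fgfr2 and Spry2. For Fgfr2, a receptor, an anchor at the start (chr7:130260001-130270000) was joined to the opposite end of the gene 100 kb away (chr7:130160001-130170000). That loop had 68 contacts in fiber and 62 in epithelium, 2.50 and 3.04 times the expectation at the same width of 10 kb. The same start was joined to an anchor in Ate1, 200 kb away on the other side, at ratios of 2.93 in fiber and 2.20 in epithelium. A fiber CTCF summit lay 0.455 kb from the Fgfr2 start, and the nearest epithelium summit 468 kb away. No ES cell anchor overlapped Fgfr2, although an ES cell anchor midpoint lay 7.5 kb from that of the start anchor. Spry2, an inhibitor that FGF signals induce, was joined over 170 kb to an anchor without a gene, at ratios of 2.79 in fiber and 3.58 in epithelium, and its start lay 2.23 kb from a fiber summit. The Fgf2 and Fgfr1 loops had ratios of 2.70 and 3.69 in fiber and 2.46 and 4.35 in epithelium.

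Of the BMP, TGF-beta and activin list, 5 of 19 genes held an anchor. Bmp4, a ligand needed for lens induction, was reached from both sides. Its start (anchor chr14:46390001-46400000) was joined to chr14:46700001-46710000, 310 kb away, with 40 contacts in fiber against 10.8 expected and 113 in epithelium against 53.5 on wider anchors. The other end of the gene was joined over 390 kb to chr14:45990001-46000000, with 51 contacts in fiber against 16.8 expected and 146 in epithelium against 57.5. In ES cells the only loop across Bmp4 in the window drawn ran from -398.169 to 331.831 kb and had no anchor on the gene. Its ends lay near the far anchors of both lens loops, at 2.5 and 17.5 kb. The fiber and epithelium lists each also held a loop over nearly this span, from -395.669 to 324.331 kb. Bmpr1b, a receptor gene, held the anchor of loops of 2325 and 2550 kb, at ratios of 3.37 and 3.26 in fiber and 3.11 and 3.40 in epithelium. The ES cell list had 3 loops on Bmpr1b, and the Bmpr1b anchor coincided with an ES cell anchor (0 kb). Acvr1, Tgfbr1 and Smad7 had 1 loop of the group each, at ratios between 2.01 and 2.54 in fiber. Acvr1 had 1 ES cell loop, and Tgfbr1 and Smad7 had none.

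The Wnt list had 8 of 18 genes with an anchor and 5 with a start in one: Fzd1, Ctnnb1, Sfrp2, Axin2 and Tcf7l2. Axin2, a feedback inhibitor of the pathway, sat between loops of 475 and 250 kb that met at its start, with ratios of 5.07 and 2.52 in fiber and 2.91 and 3.64 in epithelium. In ES cells, loops from -457.849 to 267.151 kb and from -482.849 to 117.151 kb around the start passed over Axin2 and had no anchor on it. Loops close to the first of these were also listed in fiber (-462.849 to 272.151 kb) and in epithelium (-467.849 to 272.151 kb). Fzd1, a receptor, likewise lay between loops of 500 and 160 kb, at 2.14 and 2.59 in fiber and 3.25 and 3.02 in epithelium. Ctnnb1, which encodes beta-catenin, was joined to an anchor 325 kb away at 2.58 in fiber and 2.27 in epithelium. Tcf7l2, the nuclear partner of beta-catenin, was joined to Vti1a over 350 kb at 2.00 and 2.16, and Sfrp2, a secreted inhibitor, to Dchs2 over 480 kb at 3.69 and 3.8. For Sfrp2 and Hif1a the start lay in the fiber anchor, whereas the epithelium list had no loop with an anchor on the start, so their place at a start rests on the fiber list. Wnt5a, Wnt5b and Wnt7b, which encode ligands, had 1 loop each with an anchor in the gene and not at a listed start. Wnt5a, Wnt5b and Wnt7b also had 7, 4 and 3 ES cell loops. No ES cell anchor overlapped Fzd1, Ctnnb1, Sfrp2, Axin2 or Tcf7l2, and no epithelium anchor overlapped Sfrp2 either. An ES cell anchor midpoint lay 2.5 kb from that of the Sfrp2 anchor.

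Among lens transcription factors, 11 of 28 held an anchor and 5 a start. Maf, which drives crystallin genes in fibers, had 3 such loops out of 4 fiber loops and no ES cell loop. They fanned out from the gene over 440, 650 and 725 kb, with 42, 161 and 119 contacts in fiber and ratios of 3.35, 2.52 and 2.20, and ratios of 2.99, 4.66 and 2.71 in epithelium. The nearest ES cell anchor to the Maf anchor was 1230 kb away. Sox2, which acts in lens induction as well as in pluripotency, was joined over 400 kb to chr3:34225001-34250000, with 159 contacts in fiber against 60.6 expected and 120 in epithelium against 47.1, on 25 kb anchors in both. The Sox2 anchor is also an ES cell anchor, at a midpoint distance of 0 kb, and the partner was 150 kb from any. Meis2, a regulator of Pax6, had loops of 550 and 950 kb at ratios of 1.90 and 2.77 in fiber and 2.55 and 2.41 in epithelium, beside 8 ES cell loops on the gene.

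Zeb2 was joined over 1325 kb to an anchor without a gene (101 contacts in fiber against 34.2 expected, 87 in epithelium against 28.0), and the nearest ES cell anchor to either end was 1050 kb away. Etv5, an FGF target, and Hif1a, which encodes a transcription factor stabilised at low oxygen, had loops of 130 and 125 kb from their starts at 2.70 and 1.89 in fiber and 2.27 and 2.47 in epithelium. Six3, Gata3, Eya1 and Mab21l1 had 1 loop each, at ratios between 2.23 and 2.88 in fiber. Pax6, Prox1 and Foxe3 held no anchor of the group. Pax6 had 3 fiber loops and 4 ES cell loops, and Prox1 and Foxe3 had no fiber loop at all and 5 and 4 ES cell loops.

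Of the 24 genes for fiber membrane, cytoskeleton and organelle loss, 5 held an anchor. The start of Bfsp1, which encodes the beaded filament protein filensin, was joined to Rrbp1 over 120 kb with 48 contacts in fiber and 39 in epithelium, 2.47 and 2.96 times the expectation at 10 kb anchors. Bfsp2, its filament partner, was joined over 60 kb to the anchor with the Cdv3 start at 2.60 and 2.40. Tmod1, which caps actin filaments, was joined to Tstd2 over 80 kb at 2.34 and 2.76, and a loop of 175 kb lay within Cdh2, the N-cadherin gene, at 2.56 and 2.59. None of the 16 crystallin genes held an anchor of the group. Only 2 of them had any fiber loop.

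In the cell cycle list 2 of 14 genes held an anchor. Myc had 3 such loops out of 5 fiber loops, over 825, 1630 and 1750 kb, at ratios of 2.79, 3.79 and 2.17 in fiber and 2.55, 3.65 and 2.32 in epithelium, and the Myc anchor coincided with an ES cell anchor (0 kb). The Myc loop of 1630 kb lay 47.5 kb from the nearest ES cell loop. Rb1 had 1 loop of 195 kb at 3.81 and 3.76, which lay 30 kb from the nearest ES cell loop, close to the limit of 25 kb. The ES cell list had 4 loops on Myc and 1 on Rb1. Of the 24 pluripotency genes 3 held an anchor, Esrrb, Fbxo15 and Sox2. In the Notch list Jag1 was the single gene of 11, and in the CTCF and cohesin list Stag1, a cohesin subunit, was the single gene of 12 on these chromosomes. The Stag1 start was joined to Il20rb over 190 kb and to Ppp2r3a over 510 kb, at 3.06 and 3.37 in fiber and 7.47 and 2.45 in epithelium, and a fiber CTCF summit lay 0.065 kb from the start.

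Over all 20661 protein-coding genes on these chromosomes, 1857 (8.99%) held an anchor of the group, and the lists ranged from 0% (crystallins) to 44.4% (Wnt) with 39.3% for the lens transcription factors. Lens transcription factors and Wnt genes were also richer in fiber loops of any kind: 21 of 28 and 12 of 18 held one, against 29.8% of all genes. Crystallins (2 of 16) and pluripotency genes (7 of 24, 29.2%) were not richer. ES cell loops lay on 19 of the lens transcription factors and 8 of the Wnt genes, against 31.0% of all genes. Genes with an anchor of the group had a median length of 61.8 kb against 17.5 kb overall. The lists were not tested, and no list is singled out by these counts.

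A gene start lay in an anchor of 509 of the 1628 loops (31.3%, interval 29.1 to 33.6), against 29.0% of all fiber loops and 23.3% (interval 21.6 to 25.04) of the 2307 fiber loops found in all 3 lists. In the 1432 loops of the fiber list alone the share was higher still, at 34.1% (31.7 to 36.6). By anchor width the group stood at 27.6% against 18.9% in loops of all 3 lists at 5 kb, 30.3% against 22.8% at 10 kb, and 32.6% against 35.0% at 25 kb. The intervals parted at 10 kb and overlapped at 5 and 25 kb. The share in loops of all 3 lists was the lower on 17 of the 18 chromosomes with known starts. Without chromosome 18, whose starts were not analysed here, a choice made after seeing the data, the shares were 32.8% in the group, 24.1% in loops of all 3 lists, 35.4% in loops of the fiber list alone and 30.1% in all fiber loops. In loops of the fiber list alone both anchors held a start in 5.80% (4.70 to 7.13). The group had 55 such loops (3.38%, interval 2.61 to 4.37), a lower share and close to the 3.85% of all fiber loops. Within each width the intervals of the group and of fiber alone overlapped (2.62% against 4.68% at 10 kb, 4.03% against 6.41% at 25 kb). Examples were Ccni with Ccng2, a pair of cyclin genes 60 kb apart (ratios of 3.50 in fiber and 3.75 in epithelium), Dars with Cxcr4 (175 kb, 2.11 and 1.99), Bcl6 with Lpp (400 kb, 2.63 and 2.68), Setdb1 with Arnt (80 kb, 2.32 and 2.88) and Hoxa13 with Tax1bp1 (450 kb, 2.29 and 2.44). These pairs were picked after their values were seen. Epha7, an ephrin receptor, was the gene whose known start took part in most loops of the group, with 3, and 40 further genes took part in 2, among them Fgfr2, Jag1, Axin2, Fzd1, Stag1, Epha4, Runx1, Gli3 and Klf6. Genes without a known start in the table used, such as Maf and Myc, could not be counted there.

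The anchors of these loops were wider than those of loops of all 3 lists and narrower than those of loops of the fiber list alone. Only 123 loops (7.56%) had 5 kb anchors, 687 (42.2%) had 10 kb and 818 (50.2%) had 25 kb, whereas the loops of all 3 lists had 36.5%, 47.8% and 15.7%, loops of the fiber list alone 2.65%, 29.8% and 67.5%, and all fiber loops 16.3%, 41.5% and 42.3%. The ES cell list itself held more narrow loops, 3350 of 8459 at 5 kb, than the fiber list, 1226 of 7682, or the epithelium list, 1467 of 8005. Their median size was 320 kb (quartiles 150 and 675), against 210 kb (120 and 400) for loops of all 3 lists and 300 kb (130 and 675) for loops of the fiber list alone. The median was higher than in loops of all 3 lists on 19 of 19 chromosomes. Within a width most of this gap was gone: 160 against 165 kb at 5 kb anchors, 190 against 220 kb at 10 kb, and 475 against 400 kb at 25 kb. Loops over 1 Mb made up 14.99% (interval 13.3 to 16.8) of the group and 3.47% (2.80 to 4.30) of the loops of all 3 lists. Loops of the fiber list alone had 15.2% (13.4 to 17.1), like the group, and all fiber loops 9.33%. Against loops of all 3 lists the shares within a width were 11.4% against 2.26%, 6.26% against 3.45% and 22.9% against 6.34%, with intervals that met at 10 kb (4.68 to 8.33 and 2.52 to 4.69).

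**Figure D2:**
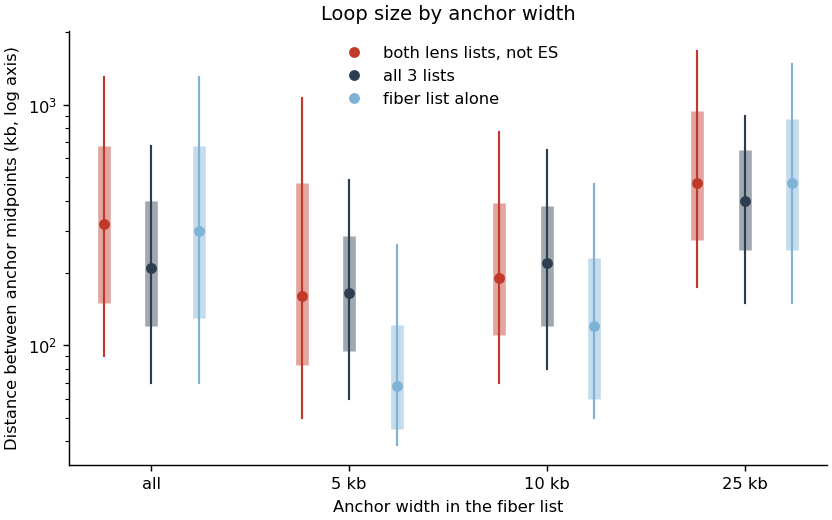
Distance between anchor midpoints in kb (log axis) by anchor width in the fiber list, for loops of both lens lists only (red), of all 3 lists (dark) and of the fiber list alone (light blue); points are medians, thick bars run from the lower to the upper quartile and thin lines from the 10th to the 90th percentile. Over all widths the red median is 320 kb against 210 kb for loops of all 3 lists, but at 5 kb anchors the medians are 160 and 165 kb.

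Of the 1628 loops, 985 had both midpoints at the same place in the epithelium list, 1182 lay within 5 kb and 235 sat at the limit of exactly 10 kb. Just outside, 174 fiber loops had an epithelium loop at more than 10 and up to 15 kb and would have joined under a slightly wider limit. On the ES cell side 55 loops lay more than 25 and up to 30 kb from the nearest ES cell loop, and 156 loops with an epithelium match were left out at 20 to 25 kb. Most were far from the limit, with a median distance of 200 kb to the nearest ES cell loop (quartiles 105 and 420) and 1233 loops beyond 100 kb.

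Contact ratios of the loops were close in both lens cell types. The ratio of observed to expected contacts, where the expectation is the mean over a ring of pixels around the loop, had a median of 2.72 in fiber and 2.93 in the matched epithelium loops. Ratios fall with anchor width, so the 2 lists were compared for the 1237 loops with the same width in both. There the fiber ratio divided by the epithelium ratio had a median of 0.943 (quartiles 0.862 and 1.02). Fiber was higher in 374 loops (30.2%). A difference of more than 1.5-fold was seen in 36 loops, 5 higher in fiber and 31 in epithelium. Of the latter 13 were among the 69 loops with 5 kb anchors. The 1654 loops of all 3 lists with equal widths had a quotient of 0.912 (0.808 and 1.01), and fiber was higher in 28.0% of them, so the tilt to epithelium was not confined to the group. Across the 1237 loops the log2 ratios had a Pearson r of 0.963, a description over loops that share the same 2 maps and that a few very high ratios stretch.

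**Figure D3:**
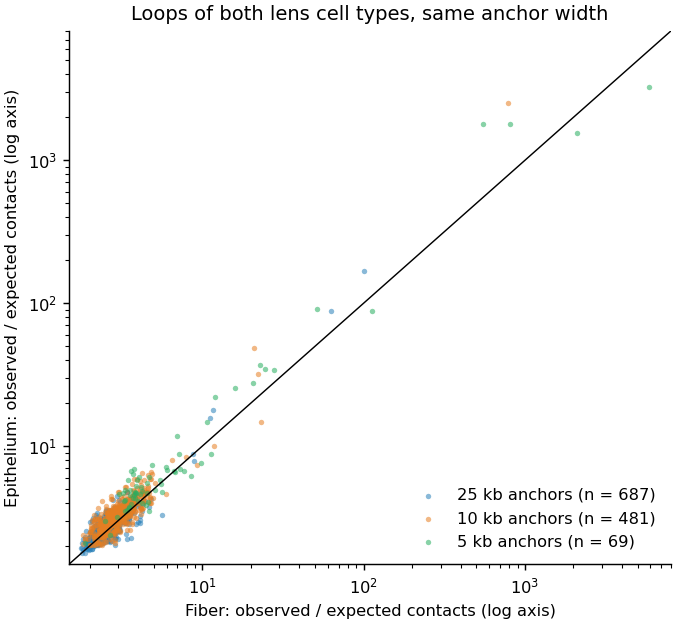
Observed over expected contacts in fiber (x axis) and in epithelium (y axis), both on log axes, for the 1237 loops of both lens lists only with the same anchor width in both; each point is a loop, coloured by width, and the line marks equality. Most points lie between 2 and 5 and slightly above the line, and a few lie far out along it, up to 5899 in fiber and 3265 in epithelium.

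Compared with loops of all 3 lists within a width, the ratios in fiber were close: medians of 4.36 and 4.48 at 5 kb, 2.95 and 3.17 at 10 kb and 2.45 and 2.55 at 25 kb. Loops of the fiber list alone had 4.29, 2.65 and 2.30.

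CTCF marked the anchors less often than in loops of all 3 lists and more often than in loops of the fiber list alone. A fiber CTCF peak overlapped both anchors of 667 loops (41.0%, interval 38.6 to 43.4), 1 anchor of 683 (42.0%) and no anchor of 278 (17.1%). Over all fiber loops 39.5% had a peak at both anchors. The share was lower than in loops of all 3 lists on 14 of 19 chromosomes and higher than in loops of the fiber list alone on 15. Wide anchors catch peaks more easily, so the classes are given by width. At 5 kb anchors both ends held a peak in 25.2% of the group (18.4 to 33.6), 39.1% of loops of all 3 lists (35.9 to 42.5) and 15.8% of loops of fiber alone (7.44 to 30.4). At 10 kb the shares were 31.4% (28.1 to 35.0), 44.1% (41.2 to 47.0) and 25.5% (21.6 to 29.9), and at 25 kb 51.3% (47.9 to 54.8), 61.2% (56.1 to 66.0) and 39.8% (36.8 to 42.9). The intervals of the group and of loops of all 3 lists did not overlap at any width. Those of the group and of fiber alone parted at 25 kb and met at 5 and 10 kb.

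**Figure D4:**
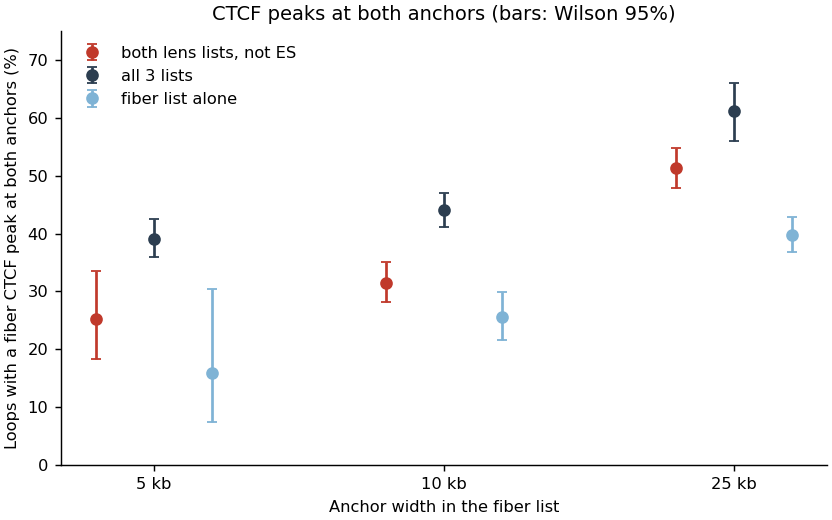
Share of loops in percent with a fiber CTCF peak at both anchors (y axis) by anchor width in the fiber list (x axis), for loops of both lens lists only (red), of all 3 lists (dark) and of the fiber list alone (light blue); points are shares and bars Wilson 95% intervals. At each width the red point lies below the dark one, 31.4% against 44.1% at 10 kb, and above the light blue one.

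In epithelium, whose list held 16433 peaks against 23868 in fiber, a peak overlapped both anchors of 272 of the matched epithelium loops (16.7%, interval 14.97 to 18.6), beside 15.9% of all epithelium loops on these chromosomes. Epithelium loops of all 3 lists had 19.2% (17.6 to 20.8), an interval that overlapped that of the group. At 10 kb anchors the share was 12.3% (10.0 to 15.1) in the group and 18.4% (16.2 to 20.9) in epithelium loops of all 3 lists. At 5 kb it was 9.43% against 16.8%, and at 25 kb 21.6% against 27.5%, with intervals that overlapped at both widths. Taking both peak lists on the fiber anchors, 230 loops (14.1%) had both anchors marked in both cell types, 117 (7.19%) had both marked in fiber and neither in epithelium, and 1 had the reverse. No lens peak touched either anchor of 256 loops (15.7%, interval 14.0 to 17.6), close to the 14.6% (13.8 to 15.4) of all fiber loops and below the 19.2% (17.25 to 21.3) of loops of the fiber list alone. They made up 32.5% of the loops at 5 kb, 20.8% at 10 kb and 8.92% at 25 kb, against 15.7%, 10.6% and 5.23% of loops of all 3 lists. The peaks themselves were of usual strength: the 2224 fiber peaks at these anchors had a median fold enrichment of 7.08 (quartiles 5.67 and 9.06), against 7.26 at loops of all 3 lists and 6.45 over all fiber peaks on these chromosomes, and 52.1% of them overlapped an epithelium peak, against 55.4% and 49.96%.

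TADs were called on the same contact maps as the loops, so these shares are no independent measure. Both anchor midpoints lay within 1 fiber TAD in 550 loops (33.8%, interval 31.5 to 36.1; 32.3% of all fiber loops), within 1 epithelium TAD in 29.5% and within 1 ES cell TAD in 26.5% (24.4 to 28.7). The last share was 42.7% (40.7 to 44.7) for loops of all 3 lists and lower in the group on 19 of 19 chromosomes. Loops of the fiber list alone had 24.5% (22.35 to 26.8), near the group. By width the group stood at 30.1% against 47.2% in loops of all 3 lists at 5 kb, and 35.8% against 46.2% at 10 kb. At 25 kb the intervals of 18.1% and 21.8% overlapped. The ES cell list held more TADs, 3604 against 2641 in fiber and 1796 in epithelium. A loop was taken to close a TAD when its midpoints lay within 25 kb of both TAD ends. In the fiber list 270 loops of the group closed a TAD (16.6%, interval 14.9 to 18.5), against 21.3% of all fiber loops. Loops of all 3 lists had 34.7% (32.8 to 36.7) and loops of fiber alone 6.01% (4.89 to 7.36). By width the group stood at 28.5% against 46.25% in loops of all 3 lists at 5 kb, and 27.5% against 34.1% at 10 kb. At 25 kb the intervals of 5.62% and 9.92% overlapped. With epithelium TADs the group had 10.1%, against 14.6% of all fiber loops. With ES cell TADs it had 8.05% against 18.6%, a share that the absence of an ES cell loop helps to set.

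**Figure D5:**
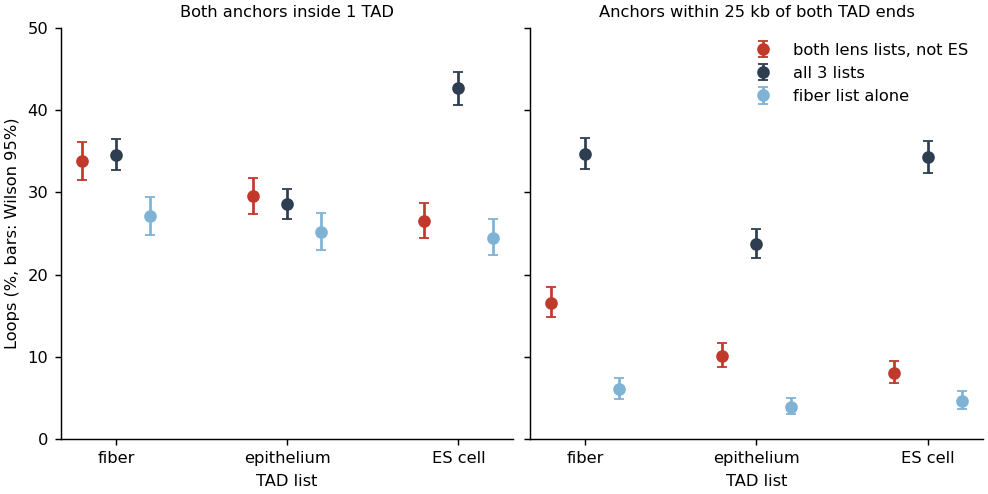
Share of loops in percent (y axis; bars are Wilson 95% intervals) with both anchors inside 1 TAD (left) and with both anchors within 25 kb of the ends of a TAD (right), by TAD list (x axis), for loops of both lens lists only (red), of all 3 lists (dark) and of the fiber list alone (light blue). The red share inside a TAD falls from 33.8% with fiber TADs to 26.5% with ES cell TADs, whereas the dark share is highest with ES cell TADs, at 42.7%. The light blue share with ES cell TADs is 24.5%.

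The absence of an ES cell loop did not mean an absence of ES cell anchors. In 838 loops (51.5%, interval 49.1 to 53.9) exactly 1 anchor midpoint lay within 10 kb of an anchor of some ES cell loop, in 245 (15.05%) both did, without an ES cell loop joining them at the set distance, and in 545 (33.5%) neither did. Together 66.5% had at least 1, beside 81.2% of all fiber loops, which include by definition those shared with ES cells, and 61.1% of loops of the fiber list alone. Of the 1328 shared anchors, 1136 (85.5%) had an ES cell loop that pointed toward the other lens anchor. In 716 cases (63.0%) at least 1 such ES cell loop stopped short of the lens partner, and in the other 420 (37.0%) all ran past it. Shares of this kind were not taken for other fiber loops. Spans were also nested: 1363 loops (83.7%) lay wholly within a longer ES cell loop and 636 (39.1%) enclosed a whole ES cell loop. These shares were 83.2% and 42.4% in loops of the fiber list alone and 89.8% and 57.2% in all fiber loops, where a loop shared with ES cells can count by itself. A further 174 (10.7%, interval 9.28 to 12.3) had no ES cell anchor within 100 kb of either anchor, the Maf and Jag1 loops among them, against 11.6% (10.04 to 13.4) of loops of the fiber list alone and 5.33% of all fiber loops, which include those shared with ES cells.

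Most loops shared no anchor site with another loop of the group. Sites shared with other fiber loops were not counted. The 3256 anchors of the group fell on 2973 sites, of which 2713 served 1 of its loops, 238 served 2, 21 served 3 and 1 served 4. In all, 1140 loops shared no site with another of the group. The site with 4 loops lay at Zfp608, a zinc finger gene on chromosome 18 without ES cell loops, and reached out over 80, 140, 400 and 990 kb. Ratios ran from 2.03 to 3.65 in fiber and from 2.46 to 4.03 in epithelium. Among the 21 sites with 3 loops, a site in Dock4, an activator of Rac, had loops of 850, 2975 and 3325 kb, at 2.52, 2.76 and 2.59 in fiber and 2.33, 3.11 and 3.17 in epithelium. Counted over whole genes, 8 genes held anchors of 4 loops: Arhgap26, Dock4, Dscam, Klra4, Nrxn3, Prkg1, Ror1 and Zfp608. A further 35 genes held 3, among them Jag1, Maf, Myc, Abca13 and Adamts17. Except for Klra4 and Zfp608, at 23.6 and 104.5 kb, the 8 are long genes of 349 to 1612 kb. Dscam and Nrxn3, which encode neuronal adhesion proteins, had 7 and 6 fiber loops and 1 ES cell loop each.

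The window of 1 Mb with most loops of the group held the Klra genes of chromosome 6 (130000001 to 131000000), which encode natural killer cell receptors. There 7 of 10 fiber loops belonged to the group and no ES cell loop was called. Their sizes were 70 to 390 kb, 6 of the 7 had an anchor in Klra1, Klra4 or Klra7, and ratios ran from 3.20 to 23.1 in fiber and from 3.30 to 27.7 in epithelium. The highest fiber ratio stood on 21 contacts against 0.908 expected, and 1 of the 7 loops had a CTCF peak at an anchor. Klra genes are near-identical copies, and how reads were divided among such copies was not tested. Of the 5 windows with 5 loops of the group, the Jag1 window held 6 fiber loops and no ES cell loop, and the other 4 held 7 to 11 fiber loops and 3 to 7 ES cell loops.

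Finally, 15 loops spanned more than 5 Mb, from 5415 to 99050 kb. They rested on few contacts, 13 to 30 in fiber, against expectations of 0.0039 to 1.35, so their ratios ran from 11.1 to 5899 in fiber and from 15.8 to 3265 in epithelium. No lens CTCF peak touched either anchor in 10 of the 15 (66.7%, interval 41.7 to 84.8) and none had a fiber peak at both, whereas of the 1613 shorter loops 15.3% (13.6 to 17.1) had no lens peak. The longest ran from chr1:38700001-38725000 to chr1:137750001-137775000 with 13 contacts in fiber and 14 in epithelium. The highest ratio belonged to a loop of 69995 kb on chromosome 2, from chr2:88920001-88925000 to chr2:158915001-158920000, with 23 contacts in fiber and 19 in epithelium. Genes at the anchors of the 5 longest loops were Actr2, Kpnb1, Tbkbp1, Cntnap5b and Spag16. The 10 loops with the highest lower of their 2 ratios were 9 of these long loops and a loop of 2920 kb on chromosome 7 (25 contacts in fiber against 0.222 expected, 16 in epithelium against 0.181), and added Irak1bp1, Efhb, 1810024B03Rik and Zfp120. Great length, few contacts and few CTCF peaks went together here, and the part of the low counts in these calls was not tested.

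Across chromosomes the group made up 16.4% (chromosome 11) to 26.3% (chromosome 18) of the fiber loops, with 143 loops on chromosome 2 and 38 on chromosome 19.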

How the data were processed

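Loops, TADs and CTCF peaks were taken as deposited. Per the submitters' processing notes reads were aligned to mm10 (the GRCm38 assembly) with BWA, contact maps were made with Juicer and peaks with MACS2, and the loop files were written by juicer_tools 2.13.06. The authors merged 2 Hi-C replicates of each cell type before calling, so the deposited lists carry no replicate values. The deposited loop lists give observed contacts as counts, expected contacts on the same count scale for 4 neighbourhoods, and a q-value for each. The deposited peak lists give fold enrichment (a ratio over background) and −log10 p- and q-values. Neither the depth of the maps nor that of the ChIP-seq can be read from these lists, so precision rests on the contacts behind each loop and on the number of loops.

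Members and gene lists were chosen with earlier results of these data known. Distances used anchor midpoints, and a loop was matched to the nearest loop by the larger of its 2 midpoint distances. Enrichment was observed over donut expectation. A peak or gene was assigned to an anchor on an overlap of at least 1 bp, and a TAD held a loop when both midpoints lay inside it. Loops between the limits (1859) and loops of fiber and ES cells (276) were counted and not compared. Gene bodies, starts and promoter bases came from RefSeq tables on GRCm38.p6, with starts for 17491 of 21896 protein-coding genes and none on chromosome 18, so shares with a gene start are lower bounds. Named genes were the listed genes under an anchor, the 10 genes with most loops, and genes at the 10 most enriched and 5 longest loops and 5 busiest sites, and some of these are not reported here. Lists were described with no test, and shares have Wilson 95% intervals. Functions were tested on simulated loops. Python 3.11.15, numpy 2.4.6, pandas 2.3.3, scipy 1.17.1 and matplotlib 3.10.9 were used. Alternatives covered the distance limits, anchor width, FDR, peak threshold, peak and TAD lists, and expectation.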

Additional observations from a re-analysis of the deposited data

Results flagged for a closer look

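Chromosome X stood outside the choice of loops. There 32 of 178 fiber loops (18.0%, interval 13.0 to 24.3) met the same distances. The share among fiber loops of the chromosomes used for the choice, 21.7%, lay within this interval. These 32 loops had a median size of 422.5 kb and a fiber CTCF peak at both anchors of 9 (28.1%, interval 15.6 to 45.4). The ES cell list held 248 loops on chromosome X and the epithelium list 165. The ES cell line is male and the sex of the pooled mice is not given in the sources used here.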

How the results depend on the processing

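Of 64 recomputed values, 36 stayed within the interval of the main value and 28 fell outside it. The number of loops has no such interval, and a set band of 1085 to 2442 was used. It was 2264 with an epithelium loop within 25 kb and 2060 with overlapping anchors in place of distances. No ES cell loop within 10 kb gave 2070 loops, none within 50 kb 1456, and every FDR below 0.01 gave 1359. Anchors of 10 kb or less in fiber left 810 loops, with a median size of 180 kb, median ratios of 3.083 in fiber and 3.259 in epithelium, CTCF at both anchors in 30.49% (fiber) and 14.57% (epithelium), and 41.48% inside 1 fiber TAD. An epithelium loop within 25 kb gave ratios of 2.671 and 2.83 and 38.34% with fiber CTCF at both anchors. No ES cell loop within 10 kb gave an epithelium ratio of 2.999 and 72.8% with an ES cell anchor, and none within 50 kb gave 63.87%. The lower left expectation gave ratios of 2.59 and 2.742, and the outer span a median size of 330 kb. Every FDR below 0.01 gave 43.78% with fiber CTCF at both anchors, the strongest fiber peaks alone 28.75%, epithelium peaks on fiber anchors 15.97% and fiber peaks on epithelium anchors 41.89%. Anchors widened by 5 kb gave 54.05% (fiber CTCF), 23.53% (epithelium CTCF) and 41.65% (gene starts). The share inside 1 TAD was 29.55% with epithelium TADs, 26.47% with ES cell TADs and 27.4% with whole anchors inside. ES cell anchors within 25 kb gave 77.83% and overlapping ones 62.65%. Over all widths together, CTCF at both anchors was lower than in loops of all 3 lists with widened anchors and with the strongest fiber peaks. It was higher than in loops of the fiber list alone with widened anchors and with the strongest fiber peaks. With epithelium peaks the interval of the group (15.97%, 14.3 to 17.8) overlapped that of loops of all 3 lists (18.64%, 17.1 to 20.3). It also overlapped that of fiber alone (15.43%, 13.65 to 17.4).

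No paired analysis was possible because each cell type has 1 merged list and no result comes from a test. Leaving out a replicate was not run, as the lists are merged. Contact depth of the maps is not in the lists used here, and its part in which loops were called was not tested.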
